A study of Mus musculus with 2 samples.

Results

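Granule killing and receptor genes, 9 in all, were followed in single cells of mouse tumours: the granzymes Gzma, Gzmb and Gzmc, the pore protein Prf1, the granule protein Nkg7, the cytokine Ifng, the death ligand Fasl and the activating receptors Klrk1 and Ncr1. They were taken by name from the gene table that both libraries share, and all 9 were found among its 32285 genes. CMT167R cells, derived from a mouse lung carcinoma line and labelled as resistant to anti-PD1 and as WT in genotype, had been injected subcutaneously so that tumours formed in C57BL/6 animals. The mice of the PKCi library received the agent that the labels call PKCi at 3 mg/kg each day into the abdomen, and those of the control library received its solvent. Tumours were taken when the controls had reached 400 mm3, at which point the labels record a difference in volume between the treatments. Each treatment is 1 library, and the labels do not give the number of mice behind it, so no test between the treatments was possible. Every interval below is an exact 95% interval that covers counting error only, and mice of a treatment may differ by more.

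Killer lymphocytes store granzymes and perforin in granules. Upon contact with a target, perforin lets the granzymes, which are serine proteases, into its cytosol, where they set off cell death. Nkg7 is a membrane protein of these granules that takes part in their release. Interferon gamma (Ifng) acts on the target and on neighbouring cells through its receptor, and Fas ligand (Fasl) kills through the death receptor Fas. NKG2D (Klrk1) recognises stress ligands of the Raet1, H60 and Ulbp1 families and is carried by natural killer (NK) cells and CD8 T cells, while NKp46 (Ncr1) is a receptor of NK cells and of some innate-like lymphocytes. The mouse granzymes B to G and N lie side by side on chromosome 14, and Gzma lies on chromosome 13.

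The PKCi library held 7457 cell barcodes and 229219749 unique molecular identifiers (UMIs, each of which marks 1 captured RNA molecule), against 6688 barcodes and 222641855 UMIs in the control library, and the libraries shared 20 barcode sequences. Of these, 7210 PKCi barcodes and 6380 control barcodes had at least 500 detected genes and at most 20% mitochondrial UMIs. Gates used raw UMIs of markers and none of the 9 genes: T cells had 2 or more UMIs of Cd3d, Cd3e and Cd3g, and NK cells had 2 or more UMIs of 7 killer-lectin genes and fewer than 2 Cd3 UMIs. An 8th lectin gene, Klra4, was dropped from the NK gate after its values were seen, because 84.4% of its UMIs in the PKCi library and 87.5% in the control library lay in carcinoma cells. Gated barcodes that also carried carcinoma, macrophage, monocyte or neutrophil markers were set aside as mixed, 50 in the PKCi library and 27 in the control library. This left 50 PKCi NK cells with a median of 9356 UMIs and 29 control NK cells with a median of 12228. It left 115 PKCi T cells with a median of 4347 UMIs and 64 control T cells with a median of 4685. Among the T cells, 44 in the PKCi library and 20 in the control library had Cd8a or Cd8b1 and no Cd4 and are called CD8 T cells. Trac and Ptprc, which the gates did not use, were then read. Trac was detected in 67.8% of PKCi and 68.8% of control T cells, against 10.0% of PKCi and 13.8% of control NK cells. Ptprc was detected in 98.0% of PKCi and 86.2% of control NK cells. Cd3e had no UMI in the NK cells of either library, but the gate itself held NK cells to fewer than 2 Cd3 UMIs. Some cells of the NK gate went against that name: 8 of 50 PKCi and 7 of 29 control cells had no UMI of the 9 genes other than Klrk1, at a median of 10796 UMIs in the PKCi cells and 7104 in the control cells. All of these 8 PKCi and 7 control cells had UMIs of the antigen presentation gene H2-Ab1, against 12 of 42 PKCi and 6 of 22 control cells among the others, and none of them had Il2rb, Eomes or Tbx21. They were found after the values were seen and were kept in the gate, and ratios without them are given beside those that were called. Krt8 stood at 23.4 (PKCi) and 12.1 (control) CPM in NK cells, where barcodes with 5 or more carcinoma marker UMIs had already been set aside. These low values are therefore in part set by the gate. Levels are given as CPM, the UMIs of a gene per 1000000 UMIs of the summed cells, and since each UMI is 1 molecule read from its 3′ end, levels of different genes need no scaling by length.

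Most granzyme and perforin UMIs lay in NK and T cells, which together held between 80.7% (Prf1) and 88.3% (Gzma) of them in the PKCi library and between 78.9% (Gzmb) and 96.1% (Gzma) in the control library. Mixed barcodes held between 6.69% and 14.9% of them in the PKCi library and between 1.96% and 14.3% in the control library. Gzmb was also high in the mast cell and basophil gate, which had 2 cells per library: it had 1 UMI in 1 PKCi cell and 40 UMIs in both control cells, or 5526 CPM in the control library (3948 to 7524). Gzmc was the most abundant of the 9 genes in NK cells of both libraries, with 8464 CPM in the PKCi library (8224 to 8709) and 13416 in the control library (13066 to 13773). In carcinoma cells Gzmc stood at 1.13 CPM in the PKCi library and 1.70 in the control library (1.42 without 1 granzyme-rich barcode described further on). For the other 8 genes the carcinoma level was between 0.0381 (Fasl) and 0.250 (Gzma) in the PKCi library and between 0.0272 (Ifng) and 0.534 (Gzmb) in the control library. Levels in carcinoma cells serve below as the background that free RNA gives. All of the genes except Klrk1 had no UMI in the dendritic gate of either library, of 51 PKCi and 19 control cells. In PKCi NK cells the order of the levels after Gzmc was Gzma (1688), Gzmb (1318), Nkg7 (846), Prf1 (559), Klrk1 (302), Ncr1 (174), Fasl (53.9) and Ifng (39.5), and only Fasl and Ifng had overlapping intervals. In control NK cells it was Gzmb (3675), Gzma (1890), Prf1 (1260), Nkg7 (1091), Klrk1 (307), Ncr1 (215), Ifng (48.3) and Fasl (33.8), and the intervals of Prf1 and Nkg7, of Klrk1 and Ncr1, and of Ifng and Fasl overlapped.

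**Figure D1:**
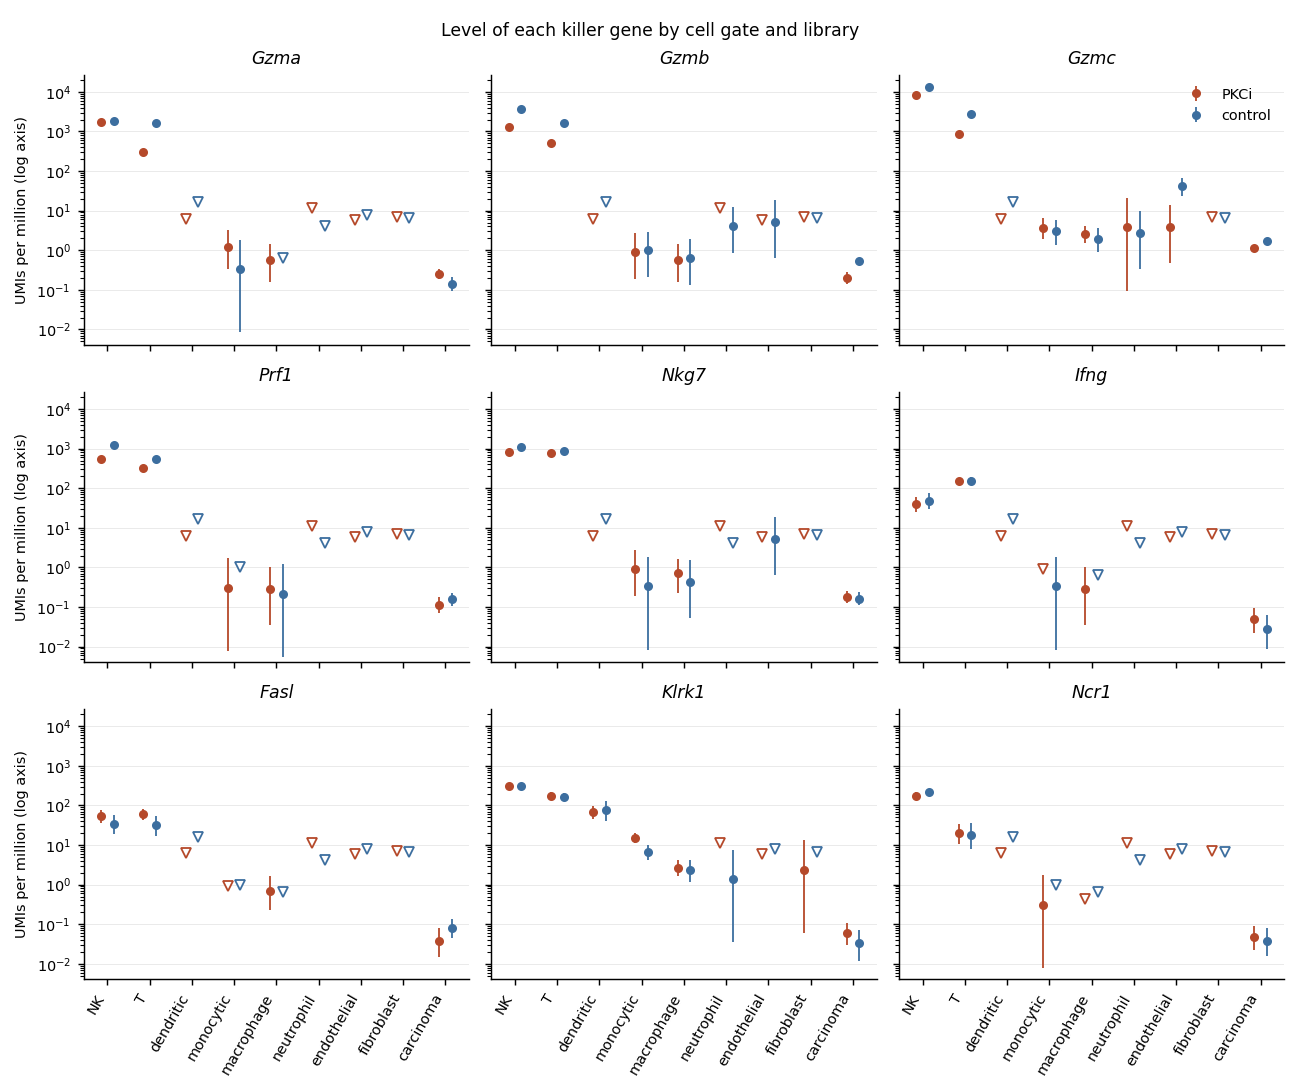
Level of each of the 9 genes (CPM of the summed cells, log axis) in 9 cell gates, PKCi left of control; points are levels, bars exact Poisson 95% intervals, and open triangles mark gates with no UMI, drawn at the level that 3 UMIs would give. Gzma, Gzmb and Gzmc stand at 1318 or above in NK cells and every gene at 1.70 or below in carcinoma cells, and Klrk1 is the only one of the 9 with UMIs in the dendritic gate, at 66.7 in the PKCi library and 76.2 in the control library.

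The 250 bases before the transcription start are shown for 5 genes: Gzmb, Gzmc and Prf1, whose levels were lower together in PKCi NK cells, Ncr1, which CD8 T cells lacked, and Klrk1, the gene also found in dendritic cells. RefSeq windows (build GRCm38.p6) were found for all 9 genes. Capitals mark matches, on either strand, to motifs searched by their letters: T-box TCACAC, RUNX TGTGGTT, AP-1 TGAGTCA or TGACTCA, CRE TGACGTCA and ETS CAGGAAG or CAGGAAA. The TGAGTCA and TGACTCA letters of AP-1 are each other's reverse complement, so 1 site is read as both.
Gzmb: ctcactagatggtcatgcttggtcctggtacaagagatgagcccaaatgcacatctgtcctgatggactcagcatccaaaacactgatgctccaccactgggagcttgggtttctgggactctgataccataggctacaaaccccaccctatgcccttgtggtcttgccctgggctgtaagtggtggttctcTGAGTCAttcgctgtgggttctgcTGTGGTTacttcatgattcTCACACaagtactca
Gzmc: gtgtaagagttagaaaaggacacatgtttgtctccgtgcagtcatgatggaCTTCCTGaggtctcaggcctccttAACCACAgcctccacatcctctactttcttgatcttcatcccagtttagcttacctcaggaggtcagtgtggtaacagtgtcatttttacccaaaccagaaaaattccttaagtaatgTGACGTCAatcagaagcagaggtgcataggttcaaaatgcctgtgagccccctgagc
Prf1: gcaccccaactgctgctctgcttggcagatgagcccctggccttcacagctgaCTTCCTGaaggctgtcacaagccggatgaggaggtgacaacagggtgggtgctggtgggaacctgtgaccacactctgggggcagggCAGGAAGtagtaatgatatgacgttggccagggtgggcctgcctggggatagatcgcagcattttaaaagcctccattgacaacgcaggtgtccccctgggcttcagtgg
Ncr1: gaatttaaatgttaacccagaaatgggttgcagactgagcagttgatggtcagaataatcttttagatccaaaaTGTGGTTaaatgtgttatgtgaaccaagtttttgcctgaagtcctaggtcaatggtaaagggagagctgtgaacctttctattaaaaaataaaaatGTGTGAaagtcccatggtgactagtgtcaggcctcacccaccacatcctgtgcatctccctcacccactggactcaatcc
Klrk1: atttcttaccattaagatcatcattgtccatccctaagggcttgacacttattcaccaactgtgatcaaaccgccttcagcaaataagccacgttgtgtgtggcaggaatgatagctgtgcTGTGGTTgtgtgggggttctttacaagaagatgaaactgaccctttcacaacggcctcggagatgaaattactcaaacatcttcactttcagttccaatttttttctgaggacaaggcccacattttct
The Gzmb window holds the AP-1, RUNX and T-box letters within 58 bases of its start, and the Gzmc window holds RUNX, CRE and ETS letters, with the CRE letters 57 to 50 bases before the start. The Prf1 window holds the ETS letters at 2 places, the Ncr1 window RUNX and T-box letters and the Klrk1 window RUNX letters. Over 32851 windows of this length the T-box letters occur in 12.3%, RUNX in 4.40%, AP-1 in 4.46%, CRE in 1.55% and ETS in 18.2%. The windows lie at chr14:56262335-56262584 (Gzmb, minus strand), chr14:56234658-56234907 (Gzmc, minus strand), chr10:61297586-61297835 (Prf1, plus strand), chr7:4337465-4337714 (Ncr1, plus strand) and chr6:129623865-129624114 (Klrk1, minus strand). These are matches of letters only, and binding was not measured here.

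In NK cells, Gzmb, Gzmc and Prf1 were lower in the PKCi library than in the control library, and none of the 9 genes was higher by the same rule. A gene is called here when the libraries differ by at least 1.5 times and the interval of the ratio leaves out 1. By this rule 3 of the 9 genes were lower and 0 higher in PKCi NK cells, where 5.16% of all 5700 genes with 20 or more UMIs were lower and 6.58% higher. Over these 5700 genes the median log2 ratio was 0.04. Without the cells of the gate that had no UMI of the 9 genes other than Klrk1, the same 3 genes were called, with ratios of 0.379 for Gzmb, 0.666 (0.641 to 0.693) for Gzmc and 0.468 for Prf1. These cells were picked by their lack of the genes compared. Leaving them out changes the total UMIs of the gate but not the UMIs of the 3 genes, so these ratios are given as values only.

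Gzmb, the granzyme that cleaves caspases and their substrates after aspartate, had 734 UMIs in 50 PKCi NK cells and 1522 UMIs in 29 control NK cells, which is 1318 CPM (PKCi) and 3675 CPM (control). The ratio was 0.359 (0.328 to 0.392). The cells of the libraries overlapped throughout: the median cell had 520 Gzmb CPM in the PKCi library and 632 in the control library, while the upper quartile was 1227 in the PKCi library and 4301 in the control library. The lower quartile lay the other way, at 21.5 in the PKCi library and 0 in the control library, and the highest cell had 10636 in the PKCi library and 13189 in the control library. A mean that gives each cell the same weight had a ratio of 0.505. The quartiles, the medians and this mean include 8 of 50 PKCi and 7 of 29 control cells that went against the NK name. Those cells had no Gzmb UMI by the way they were picked. How far they set the medians and the order of the lower quartiles was not tested.

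Prf1 had 311 UMIs in PKCi and 522 UMIs in control NK cells, or 559 CPM (PKCi) and 1260 CPM (control), a ratio of 0.443 (0.384 to 0.511). A single control cell held 26.6% of the control UMIs, and without the highest cell of each library the ratio was 0.497 (0.425 to 0.582). Prf1 was detected in 39 of 50 PKCi and 21 of 29 control NK cells, and in 56% of PKCi and 60.7% of control NK cells after each cell was thinned to 2000 UMIs, so the share of positive cells differed less than the level.

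Gzmc, an orphan granzyme of activated mouse killer cells, had 4713 UMIs in PKCi and 5557 UMIs in control NK cells, and its ratio was 0.631 (0.607 to 0.656). In the PKCi library 37 of 50 NK cells had a UMI and the median positive cell had 49 UMIs, while in the control library 16 of 29 NK cells had one and the median positive cell had 319 UMIs. Of the cells without Gzmc, 8 of 13 in the PKCi library and 7 of 13 in the control library were those that lacked every one of the 9 genes but Klrk1 and carried H2-Ab1. After each cell was thinned to 2000 UMIs, Gzmc was detected in 70% of PKCi NK cells (55.4% to 82.1%) and 53.6% of control NK cells (33.9% to 72.5%), intervals that overlap. In carcinoma cells thinned in the same way it was detected in 4 of 1000 PKCi cells and 1 of 1000 control cells.

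Gzma, the tryptase granzyme, differed less, with 1688 CPM in PKCi and 1890 in control NK cells (ratio 0.893, 0.811 to 0.983), and it was present in 25 of 50 PKCi and 14 of 29 control NK cells. Its control level rested on few cells: the 5 highest held 56.5% of the PKCi UMIs and 79.4% of the control UMIs, and without them the ratio was 1.70 (1.41 to 2.05). Nkg7 stood at 846 CPM in PKCi and 1091 in control NK cells, a ratio of 0.775 (0.680 to 0.884), short of the 1.5-fold rule, and 0.999 when each cell had the same weight. Leaving out the same number of cells from each library takes a larger share of the 29 control cells than of the 50 PKCi cells, so such ratios are given as values only.

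**Figure D2:**
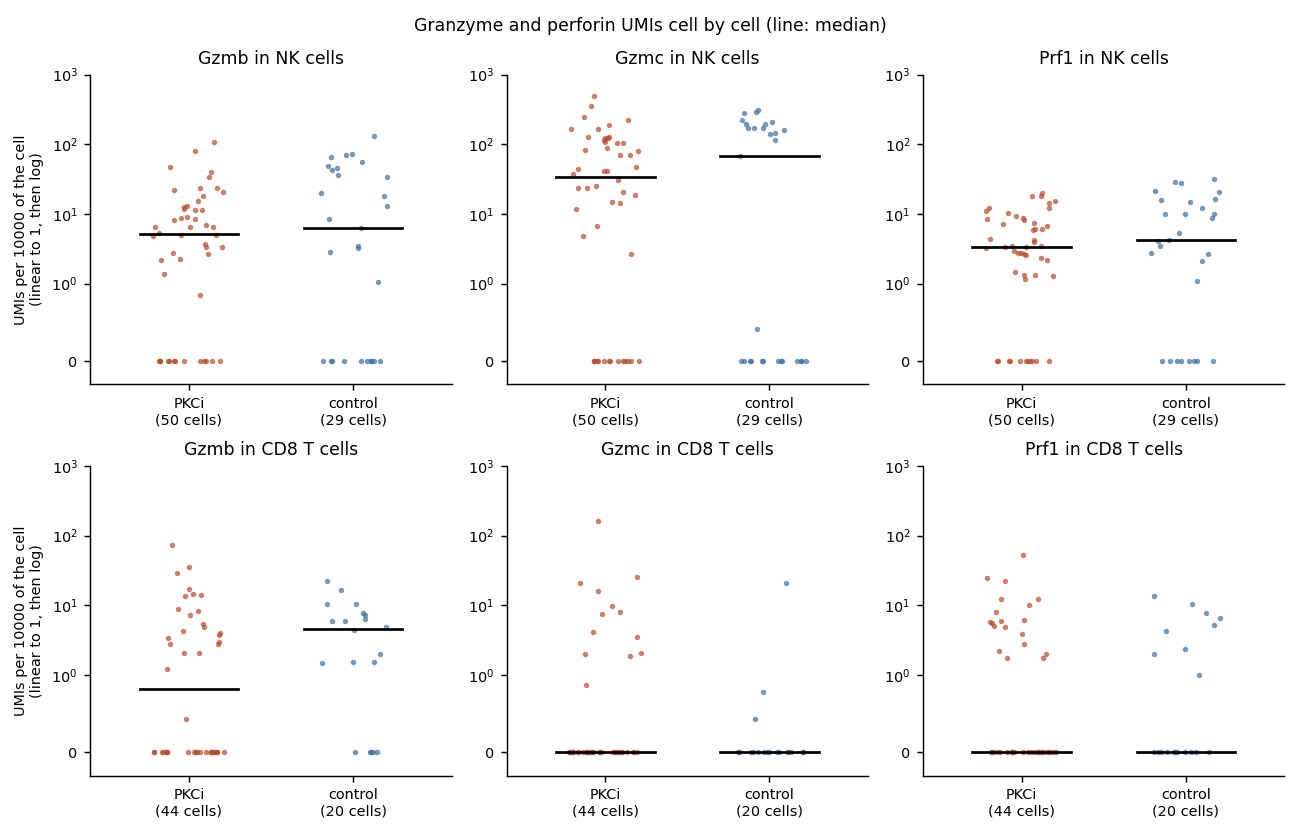
Gzmb, Gzmc and Prf1 in single NK cells (upper row) and CD8 T cells (lower row), as UMIs per 10000 of the cell's own UMIs on an axis that is linear to 1 and logarithmic above; each point is 1 cell, PKCi left of control, and the line is the median. PKCi NK cells with Gzmc spread over the range while control NK cells with Gzmc cluster near the top, and in CD8 T cells Gzmc is seen in 13 of 44 PKCi cells and 3 of 20 control cells.

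The other granzymes of the chromosome 14 cluster that could be measured, Gzmd to Gzmg, were lower in PKCi NK cells as well. Gzmg had 711 CPM in PKCi and 9850 in control NK cells (ratio 0.0722), and Gzmf had 742 CPM in PKCi and 8250 in control NK cells (ratio 0.0899). Gzme had 1007 CPM in PKCi and 3571 in control NK cells (ratio 0.282), and Gzmd had 2949 in PKCi and 7595 in control NK cells (ratio 0.388). These 4 genes stood on few cells as well: Gzmg was seen in 9 of 50 PKCi and 10 of 29 control NK cells, and 1 control cell held 64.7% of the control Gzmg UMIs. Without the 5 highest cells of each library the Gzmg ratio was 0.0454 and the Gzmd ratio 0.389. Together the 7 granzymes of the cluster made up 1.52% of all PKCi NK UMIs and 4.64% of all control NK UMIs, and as much as 7.23% of a single PKCi cell and 16.5% of a single control cell. The transcripts of Gzmd, Gzme, Gzmf and Gzmg are near copies of each other, with up to 94.9% identity over the aligned bases and a shared run of up to 96 bases in their last 500, so reads may have been divided among them in counting. Gzmc shared no run over 18 bases with any of them there, and Gzmb none over 10.

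**Figure D3:**
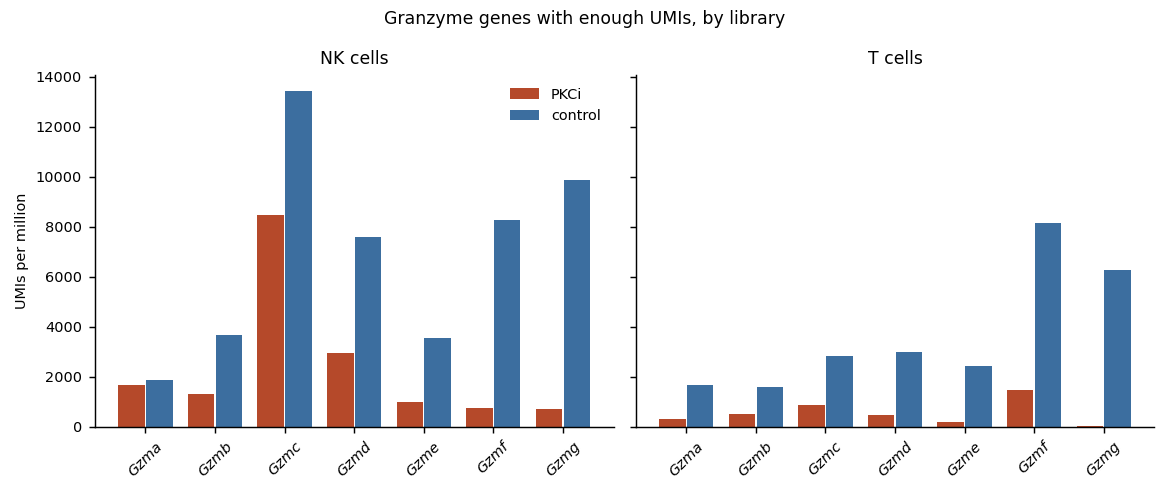
Level of 7 granzyme genes (CPM of the summed cells, linear axis from 0) in NK cells and T cells, PKCi bar left of control bar. In NK cells the PKCi bars of Gzmd, Gzmf and Gzmg reach 2949, 742 and 711 where the control bars reach 7595, 8250 and 9850.

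In the T-cell gate as a whole, Gzma, Gzmb, Gzmc and Prf1 were lower and Fasl higher in the PKCi library. This made 4 of 9 genes lower and 1 higher, where 3.53% of 6371 genes were lower and 6.56% higher. The Gzma and Gzmc UMIs lay mostly in a few T cells that also carried NK lectins. In the PKCi library 1 T cell held 194 of 196 Gzma UMIs. In the control library 1 T cell held 680 of the 740 Gzma UMIs, and 3 T cells held 548, 416 and 240 of the 1238 Gzmc UMIs. Whether such barcodes are T cells with NK receptors or a T cell and an NK cell together cannot be told apart here. Prf1 had a ratio of 0.580 (0.480 to 0.699), but 1.14 (0.865 to 1.51) without the highest cell of each library, because 1 control cell held 66.5% of the control UMIs.

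T cells were therefore also read apart by their NK lectins. Of the PKCi T cells 32 had 2 or more NK lectin UMIs and 83 had fewer, and of the control T cells 14 had them and 50 had fewer. In T cells without them, Gzmb was again lower, at 241 CPM in the PKCi library and 684 in the control library (ratio 0.353, 0.272 to 0.456), and was detected in 27.7% of PKCi and 52.0% of control cells. Nkg7 had a ratio of 0.764 (0.596 to 0.981) there. Gzmb was also found in T cells with Foxp3, the factor of regulatory T cells, where 7 of 15 PKCi cells and 15 of 22 control cells had a Gzmb UMI, at 367 CPM (PKCi) and 1143 CPM (control). Regulatory T cells are known to use granzyme B. Cells with Foxp3 were 15 of 115 PKCi and 22 of 64 control T cells, so the make-up of the T-cell gate differed. They held 40 PKCi and 141 control Gzmb UMIs, beside 94 PKCi and 175 control UMIs in T cells without NK lectins. Among Foxp3 T cells alone the Gzmb ratio was 0.321. How far their share shaped the T-cell ratios of Gzmb or of other genes was not tested. In these T cells without NK lectins, Gzmc had 30 UMIs in 4 PKCi cells and 3 UMIs in 2 control cells, and Prf1 had 28 UMIs in 7 PKCi cells and 11 UMIs in 5 control cells (ratio 1.67, 0.807 to 3.72). Gzma was close to absent from them, with 1 UMI in the PKCi library and 0 in the control library, which allows a control level of up to 14.4 CPM.

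CD8 T cells differed from NK cells in Gzmc and Prf1. Of the 8 genes measured there (all but Ncr1), Gzmc and Prf1 were called higher and Gzma and Ifng lower in PKCi CD8 T cells, where 5.37% of 3596 genes were higher and 5.26% lower. Gzmc had 255 UMIs in 13 of 44 PKCi CD8 T cells and 14 UMIs in 3 of 20 control CD8 T cells, or 887 CPM (PKCi) and 83.0 CPM (control), a ratio of 10.7 (6.25 to 19.8). A single cell held 71.4% of the PKCi UMIs and a single cell 85.7% of the control UMIs, and without both the ratio was 21.5 on 73 PKCi and 2 control UMIs. Thinned to 2000 UMIs, Gzmc was detected in 25.6% of PKCi CD8 T cells (13.5% to 41.2%) and 1 of 20 control CD8 T cells (0.127% to 24.9%), intervals that overlap. Prf1 stood at 581 CPM in PKCi and 379 in control CD8 T cells (ratio 1.53, 1.14 to 2.08), but was detected in 19 of 44 PKCi and 9 of 20 control cells, and its ratio without the highest cell of each library was 1.34 (0.939 to 1.94). Gzmb differed by less than counting error over all CD8 T cells, with a ratio of 0.858 (0.685 to 1.08), but by more without the highest cell of each library, at 0.729 (0.545 to 0.979). Gzma had 0 UMIs in PKCi CD8 T cells, which allows up to 12.8 CPM, while all 46 control UMIs lay in 1 cell. In CD8 T cells without NK lectins, 20 in the PKCi library and 13 in the control library, Gzmc had 16 UMIs in 2 PKCi cells and 0 UMIs in control cells, while Prf1 lay the other way, with 5 PKCi and 9 control UMIs (ratio 0.435, 0.115 to 1.45). Gzmb and Nkg7 were lower in those PKCi cells, Gzmb with 9 PKCi and 20 control UMIs (ratio 0.353, 0.141 to 0.810) and Nkg7 at 750.2 CPM in PKCi and 1294 in control cells (ratio 0.580, 0.426 to 0.786).

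Nkg7 was found in nearly every CD8 T cell. It was detected in 43 of 44 PKCi and 20 of 20 control CD8 T cells, at 1242 CPM (PKCi) and 1411 CPM (control; ratio 0.880, 0.745 to 1.04). It was also spread more evenly than the granzymes, with 10.9% of its PKCi UMIs and 12.2% of its control UMIs in the highest cell. In CD4 T cells it stood at 299 CPM in the PKCi library and 129 in the control library.

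**Figure D4:**
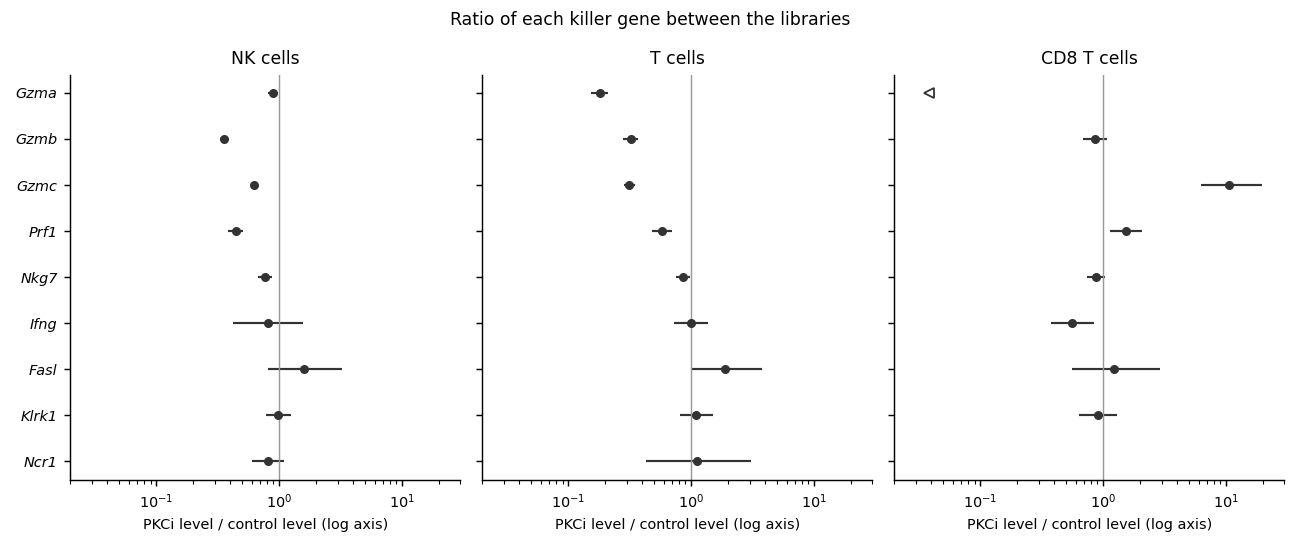
Ratio of the PKCi level to the control level of each of the 9 genes in NK, T and CD8 T cells (log axis, 1 marked by a line); points are ratios of summed CPM, bars exact 95% intervals for counting error, the open triangle is an upper bound where the PKCi library had no UMI, and Ncr1 is not drawn in CD8 T cells because it had no UMI in either library. In NK cells Gzmb, Gzmc and Prf1 lie at 0.359, 0.631 and 0.443, and in CD8 T cells Gzmc lies at 10.7 and Prf1 at 1.53.

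Ifng was a gene of T cells more than of NK cells. It stood at 152 CPM in PKCi T cells and 39.5 in PKCi NK cells, and at 152 in control T cells and 48.3 in control NK cells, so that the NK level was 0.259 (0.155 to 0.415) of the T level in the PKCi library and 0.317 (0.182 to 0.529) of it in the control library. Between the libraries its ratio was 1.00 (0.726 to 1.39) in T cells and 0.818 (0.426 to 1.58) in NK cells. In CD8 T cells it was lower in the PKCi library, at 177 CPM against 314 in the control library (ratio 0.565, 0.377 to 0.845), with a UMI in 19 of 44 PKCi cells and 11 of 20 control cells. With mixed barcodes kept in, the ratio was 0.890 (0.613 to 1.30) and the call was lost, and after thinning to 2000 UMIs 13 of 43 PKCi and 7 of 20 control CD8 T cells had Ifng. In CD4 T cells the order was the other way, with 20 UMIs in 8 of 24 PKCi cells and 2 UMIs in 1 of 16 control cells.

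Fasl was sparse in both libraries and higher in PKCi T cells at the edge of counting error. It had 39 UMIs in 115 PKCi T cells and 14 UMIs in 64 control T cells, or 60.7 CPM (PKCi) and 31.8 CPM (control; ratio 1.91, 1.01 to 3.8). Thinned to 2000 UMIs, it was detected in 12.4% of PKCi T cells (6.76% to 20.2%) and 3.23% of control T cells (0.393% to 11.2%), intervals that overlap. In NK cells it had 30 UMIs in the PKCi library and 14 in the control library, and the ratio of 1.59 (0.820 to 3.25) was within counting error. Fasl was detected in 24 of 50 PKCi NK cells and 10 of 29 control NK cells, mostly with a single UMI per cell.

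Klrk1 in NK and CD8 T cells and Ncr1 in NK cells differed by less than counting error between the libraries. Klrk1 stood at 302 CPM in PKCi NK cells and 307 in control NK cells (ratio 0.984, 0.777 to 1.25), with a UMI in 43 of 50 PKCi cells and 26 of 29 control cells. In CD8 T cells it was as high as in NK cells, at 285 CPM in the PKCi library and 314 in the control library, and the ratio between these libraries was 0.908 (0.635 to 1.31). In CD4 T cells it was higher in the PKCi library on few cells, with 11 UMIs in 4 of 24 PKCi cells, of which 1 held 6, and 0 UMIs in 16 control cells (at least 2.70-fold higher, taking 3 UMIs for the control cells). In Foxp3 T cells it had no UMI in 15 PKCi and 22 control cells, which allows up to 33.9 CPM in the PKCi library and 29.9 in the control library. Ncr1 stood at 174 CPM in PKCi NK cells and 215 in control NK cells (ratio 0.811, 0.602 to 1.09). The ratio turned to 1.03 (0.736 to 1.44) without the highest cell of each library and to 1.63 without the 5 highest. Within the T-cell gate, all 13 PKCi and all 8 control Ncr1 UMIs lay in cells with NK lectins, and CD8 T cells had none in either library. NK cells held 70.3% of the Ncr1 UMIs of all kept PKCi barcodes and 79.5% of those of all kept control barcodes.

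Klrk1 was the one of the 9 genes with UMIs in the dendritic gate, and it stood far above the carcinoma background in the monocytic gate, by 248 times in the PKCi library and 204 times in the control library. Of the others, Gzmc stood 3.3 times (1.68 to 5.89) over that background in PKCi and 1.77 times (0.801 to 3.4) in control monocytic cells. Fasl, on 5 UMIs in PKCi macrophages and 0 in control macrophages, stood 18.6 times (4.66 to 68.1) over it in the PKCi library. These are ratios of CPM, and PKCi monocytic cells had a median of 6893 UMIs beside 37128 in PKCi carcinoma cells. As UMIs per cell, Gzmc was lower in monocytic than in carcinoma cells, at 0.0305 and 0.0456 (PKCi) and 0.0261 and 0.0728 (control). Klrk1 stayed higher in monocytic cells, at 0.122 and 0.00242 (PKCi) and 0.0580 and 0.0014 (control). It was detected in 19 of 51 PKCi cells and 7 of 19 control cells of the dendritic gate, or 37.3% (PKCi) and 36.8% (control), at 66.7 CPM in the PKCi library and 76.2 CPM in the control library (ratio 0.875, 0.454 to 1.78). The median dendritic cell had 8026 UMIs in the PKCi library and 6900 in the control library. Carcinoma cells, at a median of 37128 (PKCi) and 39171 (control) UMIs, had a Klrk1 UMI in 0.242% of PKCi and 0.140% of control cells, so the share in the dendritic gate lies far above that of free RNA. None of the 19 PKCi and 7 control Klrk1-positive dendritic cells had a Cd3 UMI. Gzma, Gzmb, Gzmc, Prf1, Nkg7 and Ncr1 had no UMI in any cell of the dendritic gate, so their absence does not set the Klrk1-positive cells apart. The dendritic and monocytic gates took only barcodes with fewer than 2 Cd3 and fewer than 2 NK lectin UMIs. Low counts of both are therefore in part set by the gate. Klrk1-positive dendritic cells were richer in the antigen presentation gene H2-Ab1 than the Klrk1-negative dendritic cells, at 4319 against 1391 CPM in the PKCi library and 5313 against 287 in the control library. NK lectin UMIs were found in 7 of the 19 PKCi and 4 of the 7 control cells, and Klrd1, another lectin gene, stood at 243 against 56.3 in the PKCi library and 34.3 against 95.6 in the control library. These are sums over few cells, given as a description.

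In the monocytic gate the Klrk1 level was higher in the PKCi library. It was detected in 33 of 394 PKCi and 16 of 345 control cells, at 14.9 CPM (PKCi) and 6.68 CPM (control; ratio 2.23, 1.30 to 3.96). Thinned to 2000 UMIs, it was detected in 2.81% of PKCi monocytic cells (1.41% to 4.97%) and 1.18% of control monocytic cells (0.323% to 3%), intervals that overlap. All of these cells lacked Cd3 UMIs, where the gate itself held cells to fewer than 2, and 32 of the 33 PKCi cells and all 16 control cells lacked the granule genes and Ncr1. They were again richer in H2-Ab1, at 1905 against 357 CPM in the PKCi library and 1788 against 367 in the control library, while Lyz2 was at 14781 against 11898 in the PKCi library and at 11588 against 9829 in the control library. Macrophages had 2.69 CPM of Klrk1 in the PKCi library and 2.36 in the control library. Dendritic cells made up 0.707% of the kept PKCi barcodes and 0.298% of the kept control barcodes.

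**Figure D5:**
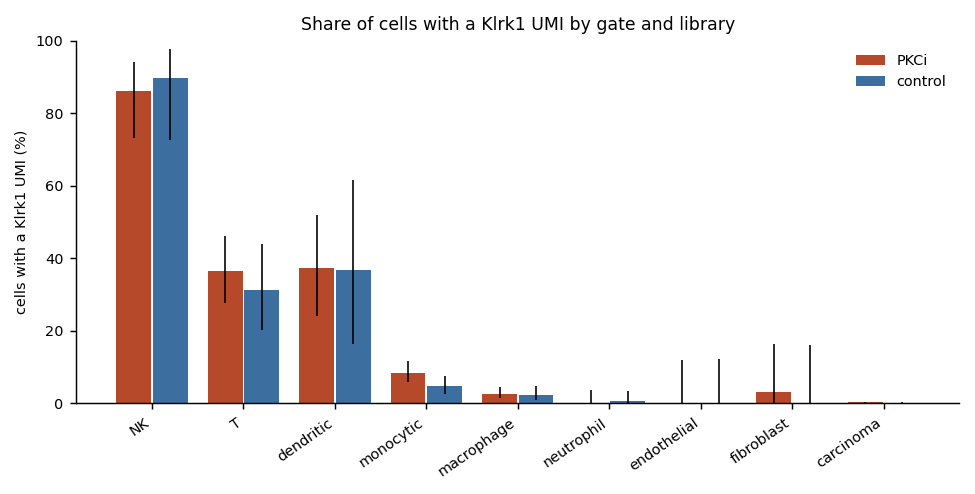
Share of cells with at least 1 Klrk1 UMI in 9 gates, PKCi bar left of control bar, with exact Clopper-Pearson 95% intervals. NK cells stand at 86% (PKCi) and 89.7% (control), the dendritic gate at 37.3% (PKCi) and 36.8% (control), the monocytic gate at 8.38% (PKCi) and 4.64% (control), and carcinoma cells at 0.242% (PKCi) and 0.140% (control).

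The genes were found together in single cells. Thinned to 2000 UMIs, 40 of 50 PKCi NK cells (66.3% to 90.0%) and 20 of 28 control NK cells (51.3% to 86.8%) had 3 or more of the 9 genes, and 6 of 50 PKCi and 3 of 28 control NK cells had none. Among CD8 T cells 26 of 43 in the PKCi library and 12 of 20 in the control library had 3 or more, and among all T cells 28.6% in the PKCi library and 25.8% in the control library. Of 1000 carcinoma cells, 0 in the PKCi library and 1 in the control library did. In PKCi NK cells 23 of the 35 cells with Gzmc also had Gzmb, while in control NK cells all 15 cells with Gzmc did. Thinned to 1000 UMIs, 21 of 34 PKCi and 13 of 15 control NK cells with Gzmc also had Gzmb. The Gzmb level was itself lower in PKCi NK cells, and how far that sets these counts was not tested.

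Lists of genes around the 9 were read by the same rule in NK cells. Of the granule proteases 6 of 7 measured were lower and 0 higher, with a median log2 ratio of -1.48 beside 0.04 over all genes. Of 12 genes of granule membrane and loading 1 was lower, Prf1 itself, and 0 higher, so the proteoglycan Srgn, which packs granzymes, stood at 1205 CPM in PKCi and 1408 in control NK cells. Of 7 cytokines and death ligands 2 were higher and 0 lower. Xcl1, a chemokine that attracts cross-presenting dendritic cells, had 438 CPM in PKCi and 82.1 in control NK cells (ratio 5.34, 3.72 to 7.89), with a UMI in 27 of 50 PKCi and 8 of 29 control cells. Ccl3 was also higher, at 68.2 in PKCi and 14.5 in control NK cells, but on 5 PKCi and 4 control cells. Ccl5 had 294 CPM in PKCi and 314 in control NK cells. Of 11 activating receptors and adaptors 1 was lower, Slamf7, at 64.7 CPM in PKCi and 126 in control NK cells. The adaptors Fcer1g and Tyrobp were the highest of these, Fcer1g at 1433 CPM in PKCi and 1702 in control NK cells and Tyrobp at 1309 in PKCi and 1340 in control NK cells.

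The list of inhibitory receptors divided. Of its 11 measured genes, 3 were higher in PKCi NK cells, and 4 were lower. The list includes Klra8, which encodes an activating receptor in the mouse strain used here. Klra8 had 235 CPM in PKCi and 91.7 in control NK cells (ratio 2.56), Klra9 122 in PKCi and 53.1 in control NK cells (ratio 2.30), and Klra3 64.7 in PKCi and 4.83 in control NK cells (ratio 13.4, on 36 PKCi and 2 control UMIs). Klra7, the highest of the list, had 329 in PKCi and 246 in control NK cells (ratio 1.33). Klra7, Klra8 and Klra9 are also markers of the NK gate, so their levels are shaped by the rule that chose the cells. Lower were Klra1, with 19 PKCi and 38 control UMIs, Klra5, with 12 PKCi and 24 control UMIs, Klrc1, the NKG2A chain that inhibits killing, at 43.1 in PKCi and 104 in control NK cells (ratio 0.415), and Havcr2, the checkpoint receptor TIM-3, at 26.9 in PKCi and 70.0 in control NK cells (ratio 0.385). Of 8 transcription factors 2 were higher and 0 lower: Tbx21, the T-bet factor of killer cells, at 115 in PKCi and 62.8 in control NK cells (ratio 1.83, 1.14 to 3.01), and Tox, at 71.8 in PKCi and 33.8 in control NK cells (ratio 2.13). Runx3, a factor that killer lymphocytes need, had 621 CPM in PKCi and 587 in control NK cells, and Id2, a factor of innate lymphocytes, had 540 in PKCi and 582 in control NK cells. Of 5 granzyme inhibitors 3 were lower and 0 higher, with Serpinb9b at 53.9 CPM in PKCi and 171 in control NK cells (ratio 0.314, 0.198 to 0.488), while Serpinb9, the inhibitor of granzyme B, had 557 in PKCi and 435 in control NK cells. Serpina3g, at 89.8 in PKCi and 145 in control NK cells (ratio 0.620), was lower, and Serpinb6b had 463 in PKCi and 490.1 in control NK cells. Without the 5 highest cells of each library the ratio of Serpinb6a, 0.448, became 1.17 (0.603 to 2.35) and that of Serpina3g 1.07 (0.541 to 2.17), and the intervals of Slamf7, Klrc1 and Havcr2 took in 1. Klra1 then had no UMI left in either library and Klra5 had 0 in PKCi and 2 in control NK cells, so none of the 4 inhibitory receptors kept its call.

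In T cells Xcl1 and Tbx21 lay the same way as in NK cells. Xcl1 had 82 UMIs in PKCi and 11 UMIs in control T cells (ratio 5.10, 2.71 to 10.6), and Tbx21 had 88.7 CPM in PKCi and 47.7 in control T cells (ratio 1.86, 1.11 to 3.23). All 7 measured granule proteases were lower and 0 higher, with a median log2 ratio of -2.47 beside 0.06 over all genes, and Gzmg had 9 UMIs in PKCi and 2765 in control T cells. A single control cell held 94.6% of those control UMIs. Without the 5 highest cells of each library the ratios in T cells were 0.708 for Gzmd, 1.07 for Gzme and 1.23 for Gzmf, with intervals that took in 1. Of 9 cytokines and death ligands 3 were higher (Xcl1, Tnf and Fasl) and 1 lower, Ccl3, at 32.7 in PKCi and 257 in control T cells, where all 113 control UMIs lay in 2 cells. Ccl4, a chemokine like Ccl3, had 426 in PKCi and 439 in control T cells. Ccl5, the highest of this list, had 2064 CPM in PKCi and 1646 in control T cells, where 1 control cell held 41.9%. Of 12 genes of granule membrane and loading 2 were higher (Ctsc and Stx11) and 1 lower (Prf1), and of 11 transcription factors 1 was higher (Tbx21). Without the 5 highest cells of each library Ctsc stayed higher, at 2.38 (1.21 to 5.12). Stx11 then stood at 1.54 (0.916 to 2.68), an interval that took in 1. The highest of these lists that were not called were Srgn, at 1475 CPM in PKCi and 1891 in control T cells, Id2, at 551 in PKCi and 748 in control T cells, and Bhlhe40, at 580.2 in PKCi and 520.5 in control T cells. Among the receptors and inhibitors they were Hcst, the adaptor of Klrk1, with 214 UMIs in PKCi and 144 in control T cells, Pdcd1, the receptor PD-1, at 154 CPM in PKCi and 129 in control T cells, Klrc1, at 132 in PKCi and 132 in control T cells, and Serpinb9, at 221 in PKCi and 291 in control T cells. None was higher and 4 were lower of 12 activating receptors and adaptors, 4 of 10 genes of the inhibitory receptor list and 2 of 5 granzyme inhibitors. The lower genes of the inhibitory receptor list were Klrg1 (25 PKCi and 64 control UMIs, ratio 0.267), the activating receptor gene Klra8 (15 PKCi and 28 control UMIs), Klra3 (9 PKCi and 16 control UMIs) and Havcr2 (37 PKCi and 46 control UMIs). The lower inhibitors were Serpinb9b (20 PKCi and 42 control UMIs, ratio 0.326) and Serpinb6b (97 PKCi and 166 control UMIs). Without the 5 highest cells of each library Klrg1 stayed lower at 0.207 (0.0801 to 0.479) and Serpinb6b at 0.573 (0.389 to 0.846). The interval of Havcr2 then took in 1. Klra8 and Klra3, whose control UMIs lay in 2 T cells each, had 0 UMIs left in either library. Serpinb9b had 2 PKCi and 0 control UMIs left, so Klra8, Klra3 and Serpinb9b lost their calls. Of the receptors and adaptors, Klrd1 (178 PKCi and 190 control UMIs, ratio 0.641) and Fcgr3 (5 PKCi and 17 control UMIs) were lower. Without the 5 highest cells the interval of Klrd1 took in 1 and Fcgr3 had 0 UMIs left in either library. Tyrobp and Fcer1g, adaptors of NK cells and myeloid cells, were lower in PKCi T cells, at 112 CPM in PKCi and 332 in control T cells for Tyrobp and at 91.8 in PKCi and 525 in control T cells for Fcer1g, and 1 control cell held 61.0% of the control Tyrobp UMIs and 52.4% of the control Fcer1g UMIs. Without the 5 highest cells of each library Tyrobp had 4 PKCi and 1 control UMIs left (ratio 2.42, 0.240 to 119), so its call was lost. Fcer1g stayed lower, at 0.185 (0.0525 to 0.535). In CD8 T cells 3 of 10 genes of granule membrane and loading were higher and 0 lower. They were Prf1, Ctsc, the protease that activates granzymes, at 167 in PKCi and 53.4 in control CD8 T cells (ratio 3.13, 1.52 to 7.25), and Lamp1, a protein of the granule membrane, at 129 in PKCi and 53.4 in control CD8 T cells (ratio 2.41, 1.14 to 5.68). Of 6 measured proteases 2 were higher (Gzmc and Gzmf) and 2 lower (Gzma and Gzme). Gzmf had 940 UMIs in 10 of 44 PKCi and 305 UMIs in 5 of 20 control CD8 T cells (ratio 1.81), Gzme had 99 UMIs in PKCi and 89 in control CD8 T cells (ratio 0.653, 0.485 to 0.879), and Gzmd had 289 UMIs in PKCi and 165 in control CD8 T cells (ratio 1.03). All of the control Gzme and Gzmf UMIs lay in at most 5 cells. Of 6 cytokines and death ligands 1 was higher (Xcl1) and 2 lower (Ccl3 and Ifng), and of 6 activating receptors and adaptors 0 were higher and 2 lower (Fcer1g, with 5 PKCi and 21 control UMIs, and Klrd1, at 473 CPM in PKCi and 765 in control CD8 T cells). Of 5 granzyme inhibitors 0 were higher and 2 lower (Serpinb9b, with 18 PKCi and 30 control UMIs, and Serpinb6b, with 45 PKCi and 59 control UMIs). None of 5 inhibitory receptors or 9 transcription factors was called. Without the 5 highest cells of each library, the intervals of Klrd1 (0.715, 0.499 to 1.035) and Serpinb6b (0.683, 0.323 to 1.49) took in 1. Serpinb9b, Fcer1g and Ccl3 then had 3 or fewer UMIs in each library. Xcl1 had 7 PKCi and 0 control UMIs left and Gzme 4 PKCi and 0 control UMIs, so these calls were lost too. Ctsc stayed higher, at 3.96 (1.19 to 20.7), and so did Gzmf, on 80 PKCi and 0 control UMIs. All 113 control Ccl3 UMIs lay in 2 CD8 T cells.

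The highest genes of these lists in CD8 T cells that were not called included Ccl5, at 2793 CPM in PKCi and 3207 in control CD8 T cells, Srgn, at 1102 in PKCi and 877 in control CD8 T cells, and Ccl4, at 574 in PKCi and 669.8 in control CD8 T cells. Hcst had 376 in PKCi and 350 in control CD8 T cells, Klrc1 257 in PKCi and 308 in control CD8 T cells, and Pdcd1 275 in PKCi and 231 in control CD8 T cells. Id2 had 616 in PKCi and 771 in control CD8 T cells, Bhlhe40 619 in PKCi and 539 in control CD8 T cells, and Serpinb9 306 in PKCi and 350 in control CD8 T cells.

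On the side of the target, none of 21 measured genes in carcinoma cells was called in either direction, where 3.95% of 17488 genes were higher and 4.60% lower. The NKG2D ligand Ulbp1 had 55.4 CPM in PKCi and 57.6 in control carcinoma cells, and Raet1e, another such ligand, 36.3 in PKCi and 38.1 in control carcinoma cells. The interferon response gene Irf1 had 194 CPM in PKCi and 170 in control carcinoma cells (ratio 1.14, 1.12 to 1.16), and H2-T23, which encodes the ligand of NKG2A, 11.9 in PKCi and 16.95 in control carcinoma cells (ratio 0.704, 0.666 to 0.744). The highest gene of this list was Serpinb6a, at 273 CPM in PKCi and 255 in control carcinoma cells. The receptor Fas had 5.34 CPM in PKCi and 6.26 in control carcinoma cells.

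Granzyme UMIs were also found outside the T and NK gates. Barcodes outside the T, NK and mixed gates were searched, after the values were seen, for 15 or more UMIs of Gzmb and Gzmc together, and there were 2 in the PKCi library and 10 in the control library. Of these, 1 PKCi and 9 control barcodes had fewer than 10000 UMIs. The PKCi one held 13 Gzmc, 6 Gzmb, 19 Gzmd and 12 Gzmg UMIs, and 1 of the control ones, with 31 Gzmb and 0 Gzmc UMIs, lay in the mast cell and basophil gate. The other 8 control barcodes held 21 to 70 Gzmc UMIs each, 334 in all, with 740 Gzmg, 462 Gzmf and 382 Gzmd UMIs, but 13 Prf1, 9 Nkg7 and 0 Ncr1 UMIs. They had 2337 to 5976 UMIs, a mitochondrial share of 0.134% to 0.491%, against a median of 1.82% in control NK cells, and 7 of the 8 had no Ptprc UMI. Of the 8, 1 had passed the carcinoma gate. The source of these barcodes was not tested. In the endothelial gate Gzmc had 2 UMIs in 2 of 29 PKCi cells and 16 UMIs in 8 of 28 control cells.

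Across the gates the genes whose level was most like the sum of the 9 were Cst7, Fcrl6, Camk4, Gzme, Gpr174, Il2rb, Ikzf3 and Gm19585. Their Pearson correlation with that sum, on log2(CPM + 1), was between 0.940 and 0.954 over 18 points (9 gates in 2 libraries), among 5342 genes with 50 or more UMIs in NK and T cells. The points share libraries and gates, and the values are a description. Cst7 encodes cystatin F, an inhibitor of the protease Ctsc, and had 165 CPM in PKCi and 213 in control NK cells, and Il2rb, a receptor chain for IL-2 and IL-15, had 589 in PKCi and 652 in control NK cells.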

How the data were processed

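Single cells of 2 tumour suspensions, 1 PKCi and 1 control library, were measured by 10x 3′ v3.1 chemistry. The authors deposited raw UMI counts per gene and cell barcode, made with Cell Ranger 7.0.0 per the file headers. The submitters' processing notes also name Seurat and GRCm38. Counts were read as deposited. Cells with at least 500 genes and at most 20% mitochondrial UMIs were kept and gated by raw marker UMIs. Gated barcodes with 5 or more carcinoma, or 10 or more myeloid or neutrophil, marker UMIs were set aside as mixed, at thresholds set after seeing the data, and no doublet caller was run. Counts were summed per library and gate. Intervals are exact (Poisson, Clopper-Pearson, or the conditional binomial for ratios) at 95%, and in ratios and figures a count of 0 was read as up to 3 counts. Cells were thinned once at random to 2000 UMIs, or to 1000 UMIs where stated, and 1000 carcinoma cells per library were used there. Log2 ratios add 0.5 counts. With 1 library per treatment no test was made between treatments. Members and lists were chosen with earlier results of these data known. All 9 genes are named. List genes are named when called (20 or more UMIs over both libraries), at most 4 each way, plus the 2 highest per list. Scripts ran on Python 3.11.15, numpy 2.4.6, pandas 2.3.3, scipy 1.17.1 and matplotlib 3.10.9, and the ratio intervals were tested on simulated data.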

Additional observations from a re-analysis of the deposited data

Results flagged for a closer look

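The ratio of the PKCi to the control library lay on opposite sides of 1 in CD8 T cells and NK cells for a pair of genes. Gzmc had a ratio of 10.69 in CD8 T cells and 0.6309 in NK cells, and Prf1 had a ratio of 1.531 in CD8 T cells and 0.4432 in NK cells. The difference between the cell types was not tested, since each treatment is 1 library. The CD8 T values rest on few cells, with 71.4% of the PKCi Gzmc UMIs and 85.7% of the control Gzmc UMIs in 1 cell each.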

How the results depend on the processing

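In NK cells the ratios of Gzmb, Gzmc and Prf1 stayed below 1 under all 11 alternatives run, between 0.280 and 0.505 for Gzmb, 0.492 and 0.728 for Gzmc, and 0.346 and 0.592 for Prf1. The alternative without NK cells that lacked the other 8 genes could not change the UMIs of these genes, only the totals. Of 278 alternative ratios, 7 turned the direction of a called ratio, and 57 others left the counting interval of the reported ratio. There were 24 that crossed 1 from a ratio that was not called, among them those of Gzma (1.70), Ifng (3.52) and Ncr1 (1.63) in NK cells without the 5 cells with the most UMIs of the gene. Of 108 alternative shares, 28 left the interval of the reported share. In T cells the log2 ratio of Prf1 turned to 0.46 as a mean of CPM per cell, 0.19 without the cell with the most UMIs of the gene, 0.33 without the 5 such cells and 0.74 in T cells without NK lectins. That of Gzmc in T cells turned to 2.53 without the 5 cells and 2.71 (2.715) in T cells without NK lectins, and that of Prf1 in CD8 T cells to -1.20 without NK lectins. The number of genes called changed as follows. With at least 1000 genes per cell, 0 were higher in T cells. As UMIs per cell, 5 were lower in NK cells, 0 higher in T cells and 1 higher in CD8 T cells. With mixed cells kept in, and likewise without the top cell, 1 was higher and 1 lower in CD8 T cells. Without the 5 cells, 2 were higher in NK cells, 2 higher and 1 lower in T cells, and 1 higher and 0 lower in CD8 T cells. Without NK lectins, 1 was lower in T cells and 1 higher in CD8 T cells. Leaving out 5 cells takes a larger share of the smaller control gates. The alternatives on Klra4, the 5 cells, NK lectins and NK cells without the other 8 genes were chosen after seeing the data. No paired analysis was possible because each treatment has 1 library.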
